A study of Mus musculus with 4 samples.

Results

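The 2 libraries described here are the vehicle cultures of a series of 4. They were chosen by their labels alone: each is the DMSO culture of 1 of 2 male C57BL/6J mice, labelled as 9 weeks old. Crypts of the small intestine were seeded in Matrigel with organoid medium, DMSO was added to the overlaying medium, and the cultures were collected after 6 h. The other 2 libraries are cultures of the same mice with 2 µM GW3965, a synthetic liver X receptor agonist, and their values are not used. The age label refers to the start of a DSS experiment, although no protocol in the labels mentions DSS, and the extraction text speaks of colon. The sources used here do not give the days in culture, the amount of DMSO or the gut segment of the crypts. Each library is 1 culture of 1 animal, so the 2 values of a gene give the spread between cultures and animals together. The values of both libraries are given to show that spread, and genes that lie far apart are named as part of it. The treatment is not compared, no difference is ascribed to the animals, and nothing was tested.

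The lining of the small intestine is renewed from stem cells at the crypt base. Their daughters divide in the crypt and become absorptive enterocytes or one of the secretory types. Goblet cells make mucus, Paneth cells make antimicrobial peptides and lysozyme beside the stem cells, enteroendocrine cells make hormones, and tuft cells sense luminal signals. Organoids keep this epithelium in culture with growth factors in place of the surrounding tissue, and hold no connective tissue, vessels or nerves of their own.

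Levels are given as TPM, a unit that corrects for transcript length and scales every library to the same total, summed over the transcripts of a gene. Where 2 values follow each other, the first is from mouse 1 and the second from mouse 2, and ± marks the SD over these 2 libraries (n = 2). The total estimated count was 19014131 and 19360706. Of 30284 genes, 18250 and 18398 had a count above 0, and 11919 and 11889 reached 1 TPM. In both libraries at once, 11477 genes reached 1 TPM, 37.9% of all genes and 50.6% of the protein-coding ones. The median over all genes was 0.18 and 0.193 TPM, against which the lists below can be read. A gene listed with 0 counts may still have had a level of up to 3 counts in a library, which is 0.158 and 0.155 CPM (counts scaled by library total). Likewise, a TPM that rests on fewer than 3 counts in a library cannot be told from 0.

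Few genes held much of the RNA. The 10 most abundant genes of a library took 14.6% and 15.9% of the TPM, the first 100 took 41% and 42.2%, and 174 and 160 genes were needed to reach 50%. At the other end, 3133 and 2957 genes held 90%. Above 1000 TPM there were 162 and 160 genes. Among the 30 genes with the highest mean, 10 were encoded by the mitochondrial genome, 9 were alpha-defensins of Paneth cells, 2 were ribosomal protein genes and 2 were keratins. Of the 29 neighbouring pairs in that order, 27 had ranges over the 2 libraries that overlapped. Such overlap does not show equal levels, because a pair can keep its order within each library. For example, mt-Co3 lay above mt-Atp6 in mouse 1 (15988 against 14518 TPM) and in mouse 2 (18939 against 17290 TPM).

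**Figure D1:**
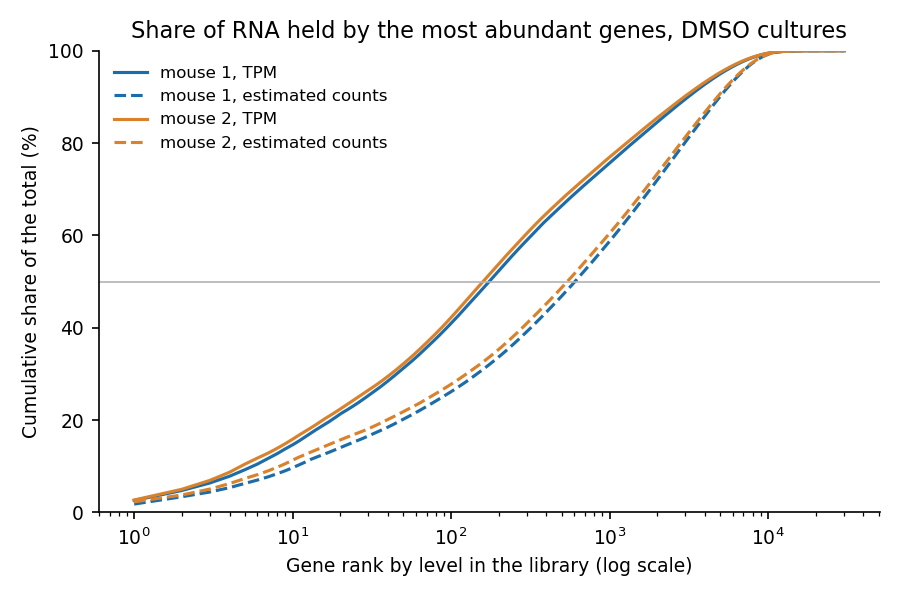
Cumulative share of a DMSO library (vertical axis, percent) held by its genes in order of level (horizontal axis, rank on a log scale), in TPM (solid) and in estimated counts (dashed), for mouse 1 (blue) and mouse 2 (orange). The TPM curves cross 50% at 174 and 160 genes, and the count curves lie below them.

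The gene with the highest mean level encodes a secreted peptide of 1 cell type. Defa24, an alpha-defensin, stood at 25635 and 22947 TPM, which is 2.6% and 2.32% of the library. In mouse 2 the mitochondrial gene mt-Co2 was higher, with 26604 TPM. Alpha-defensins, also called cryptdins in the mouse, are short cationic peptides that Paneth cells store in granules and release against microbes. They are encoded by a gene cluster on chromosome 8 (GRCm38, 21025545 to 21735471 for the family members in the files). Of 27 protein-coding members, 23 reached 1 TPM in both libraries and 14 reached 1000. Together they took 9.25% ± 1.06 of the TPM. Because their transcripts are short, they took a smaller share of the reads, 2.18% (95% Wilson interval 2.18 to 2.19) and 1.86% (1.86 to 1.87). Such intervals cover counting error alone, and reads without molecular identifiers are not independent molecules.

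The coding sequences of the 4 most abundant members are shown because they set how well reads can be told apart within the family. Each is 282 bases long, start codon to stop codon, from the GENCODE M21 transcript on GRCm38, and lies in a gene on the plus strand. Capitals mark the bases that differ from Defa24 at the same position.
Defa24: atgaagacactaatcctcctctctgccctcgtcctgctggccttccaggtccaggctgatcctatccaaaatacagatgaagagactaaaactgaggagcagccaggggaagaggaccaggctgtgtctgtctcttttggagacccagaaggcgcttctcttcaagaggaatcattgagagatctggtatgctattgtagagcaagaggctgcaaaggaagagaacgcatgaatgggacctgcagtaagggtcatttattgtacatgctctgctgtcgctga
Defa30: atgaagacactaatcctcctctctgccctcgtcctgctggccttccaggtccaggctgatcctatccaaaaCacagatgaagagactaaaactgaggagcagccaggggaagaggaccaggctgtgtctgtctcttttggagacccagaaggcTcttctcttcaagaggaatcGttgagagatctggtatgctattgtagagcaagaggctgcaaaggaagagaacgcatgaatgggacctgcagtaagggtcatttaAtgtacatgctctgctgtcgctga
Defa23: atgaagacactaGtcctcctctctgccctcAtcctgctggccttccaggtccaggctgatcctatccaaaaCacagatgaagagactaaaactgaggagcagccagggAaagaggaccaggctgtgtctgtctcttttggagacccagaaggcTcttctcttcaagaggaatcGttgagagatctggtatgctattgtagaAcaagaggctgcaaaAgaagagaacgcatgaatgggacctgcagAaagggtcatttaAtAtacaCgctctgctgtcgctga
Defa37: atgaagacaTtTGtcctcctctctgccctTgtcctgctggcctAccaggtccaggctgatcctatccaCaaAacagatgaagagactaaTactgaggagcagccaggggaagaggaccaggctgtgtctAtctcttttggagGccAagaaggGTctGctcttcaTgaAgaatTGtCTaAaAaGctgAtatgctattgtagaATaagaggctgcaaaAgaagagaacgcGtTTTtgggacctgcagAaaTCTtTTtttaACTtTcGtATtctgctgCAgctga

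Defa30 (21134642 to 21135598) differed from Defa24 (21734494 to 21735471) at 4 of these bases, and its level was 12011 and 10574 TPM. Defa23 (21055047 to 21056016) differed at 12 bases and stood at 12105 and 9896 TPM. The ranges of Defa30 and Defa23 overlapped. Defa37 (21565386 to 21566349) differed at 46 bases, 37 of them in the last 141, the part that holds the mature peptide, and had 8507 and 7268 TPM. Reads are 50 bases long, so the share of 50-base windows that a transcript has in common with other genes measures how far its level rests on the division of reads by kallisto. That share was 28.1% for Defa24, 52.4% for Defa30, 94.8% for Defa23 and 100% for Defa37. Every window of Defa37 also occurs in Defa36, which is listed at 0 in both libraries, so the 7887 ± 876 TPM of Defa37 are better read as a level of the pair. How reads are divided among family members does not alter the family's sum of counts, whereas its sum of TPM can shift because the members differ in length.

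Further down the family, Defa17 had 7349 and 6304 TPM, Defa20 5439.5 and 4346, Defa21 3882 and 3134 and Defa22 3742 and 2924. Defa17 shared 92% of its windows, Defa20 100%, Defa21 72.9% and Defa22 74.9%, so these levels too are uncertain between copies. Gm7861, which RefSeq names Defa43, was at 4043 and 2972 TPM, and Gm14851, RefSeq's Defa38, was at 3579.7 and 3059. Gm7861 shared 97.6% of its windows, nearly all with Gm7849, listed at 226 and 571 TPM, and Gm14851 shared 55.6%. At the low end were Defa28 at 6.78 and 14.5 TPM, Defa27 at 9.36 and 8.88 and Defa25 at 0 and 1.74, while Defa2, Defa31 and Defa36 had 0 counts in both libraries. All windows of Defa2 and Defa31 and 95.4% of those of Defa36 occur in other genes, so a listed 0 does not show that these copies had no reads.

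**Figure D2:**
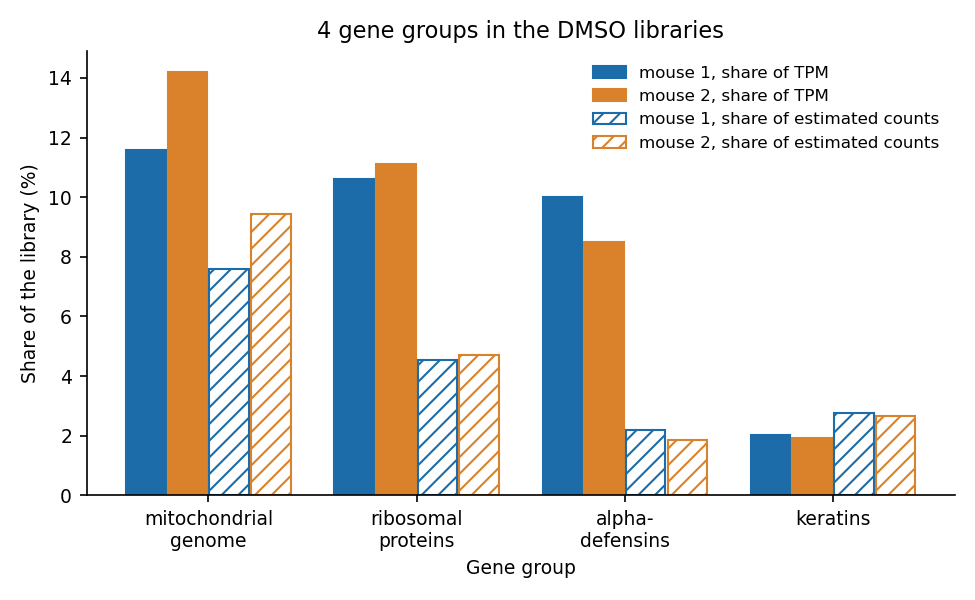
Share of a DMSO library (vertical axis, percent) in 4 gene groups (horizontal axis), as TPM (filled bars) and as estimated counts (hatched bars), for mouse 1 (blue) and mouse 2 (orange). Alpha-defensins take 9.25% of the TPM on average but 2.02% of the counts, and keratins are the group whose count bars are taller than their TPM bars.

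Other Paneth cell products were abundant as well. Lyz1, the lysozyme gene of Paneth cells (chromosome 10, 117287797 to 117292868, GRCm38), stood at 3169 and 2166 TPM. Lyz2, the lysozyme of macrophages, was at 2.71 and 1.7 TPM, and the 2 genes share 16.1% of the windows of Lyz1. Itln1, a lectin that binds microbial sugars, had 1010.3 and 696 TPM, and Ang4, an antimicrobial ribonuclease, had 583 and 362. The metalloproteinase gene Mmp7, whose product activates pro-defensins, had 101 and 50.0 TPM. Of the 19 listed genes, 18 reached 1 TPM in both libraries, with a list median of 1773 and 1609 TPM and a sum of 74833 ± 9102 TPM. In bulk RNA a sum reflects both the number of cells of a type and the RNA each contributes, and these cannot be told apart. Defa24 alone made up 31.5 and 33.6 percent of the list's sum.

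Goblet cell products came next among the secretory types. Tff3, a trefoil peptide secreted with mucus, was at 2885 and 3699 TPM, and Spink4, a protease inhibitor of goblet cells, at 2847 and 3066. Between 30.2% and 37.2% of the Spink4 level came from a transcript of only 223 bases, whose TPM rests on a short effective length. Zg16, a lectin of the mucus granule, had 1114 and 1594 TPM, Fcgbp, a mucus protein, 222 and 355, and Agr2, a disulfide isomerase needed for mucin folding, 245 and 304. Clca1, a secreted mucus-processing protein, had 126 and 148. Muc2, the gel-forming mucin of the intestine (chromosome 7, 141690340 to 141754693), had 52.4 and 54.8 TPM. Of its 8 annotated transcripts, Muc2-202 and Muc2-203 had 0 counts in both libraries, and the level was divided over the others. The longest of them has 2926 bases in the files, although the mucin is a very large protein, so the TPM of Muc2 rests on partial gene models. The list's sum was 8521 ± 1218 TPM, with 14 of 15 members at 1 TPM or more in both libraries. Retnlb, a goblet cell resistin-like peptide, was the member below that level, with 0.216 and 0.105 TPM.

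Among the mucins, the membrane-bound Muc13 was the highest, with 303 and 351 TPM, 5.78 and 6.4 times Muc2. Muc3, a membrane mucin of the brush border, followed with 78.7 and 100, and Muc4 had 5.51 and 6.82 and Muc3a 3.17 and 3.61 TPM. Muc15 and Muc5b had 0.0191 and 0.0186 TPM (Muc15) and 0 and 0.00368 TPM (Muc5b). The 7 mucins under 1 TPM in both libraries also include Muc5ac of the stomach surface at 0.0738 and 0.0326 TPM and Muc16 with 0 counts. The others were Muc6 of gastric and duodenal glands at 0.00658 and 0.0449 TPM, Muc1 at 0.027 and 0.169 and Muc20 at 0.103 and 0.204. Muc1 and Muc15 rested on 1 count in each library, and Muc5b on 0 and 1.

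Enterocyte genes were detected without exception. All 32 listed genes reached 1 TPM in both libraries, with a median of 64.9 and 99.998 TPM and a sum of 8757 ± 413 TPM. The cytosolic fatty acid carriers led, with Fabp1 at 1824 and 1166 TPM and Fabp2 at 964 and 1019, beside the retinol carrier Rbp2 at 870.2 and 1049. Fabp1 was above Fabp2 in both libraries, 1.89 and 1.14 times. The apolipoprotein genes Apoa4 and Apoa1 had 738 and 919 TPM (Apoa4) and 454 and 919 TPM (Apoa1). Of these 5 genes Apoa1 lay furthest apart between the libraries. Alpi, the brush border alkaline phosphatase and the enterocyte marker named with these samples (chromosome 1, 87098002 to 87101606), was at 315 and 322 TPM, all from 1 transcript. The lowest members were Mep1a, a subunit of the meprin protease, and Lct, the lactase of the brush border, with 2.52 and 3.96 TPM (Mep1a) and 2.15 and 5.1 TPM (Lct).

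Enterocytes change their genes as they climb the villus, and genes of each stage were detected. All 8 genes of the villus base reached 1 TPM in both libraries, with a median of 155 and 133. Among them the antimicrobial lectins Reg3b and Reg3g had 1452 and 681 TPM (Reg3b) and 1017 and 462 TPM (Reg3g). Both lay over 2-fold apart between the libraries, while the ratio of Reg3b to Reg3g was 1.43 and 1.47. Lypd8, a secreted protein that keeps flagellated bacteria off the epithelium, had 447 and 489 TPM. Transporters placed in the middle of the villus were lower. The sodium-glucose transporter Slc5a1 had 64.5 and 76.8 TPM, and the amino acid transporters Slc7a7 and Slc7a9 had 48.4 and 41.8 TPM (Slc7a7) and 40.4 and 41.9 TPM (Slc7a9). All 7 genes of this list reached 1 TPM in both libraries, with a median of 12.2 and 19.2. The middle list shares Slc5a1, Slc2a2, Slc2a5 and Slc15a1 with the enterocyte list, and the villus tip list shares Apoa4, Apoa1, Apob and Apoc3 with it. These stages are thus in part the same genes as above. Apoa4 and Apoa1 led the tip list. Of its other genes, Klf4, a transcription factor of differentiated epithelium, had 47.3 and 50.4 TPM and Ada, the adenosine deaminase, 35.5 and 47.8. All 10 genes of the tip list reached 1 TPM in both libraries, with a median of 41.8 and 49.1.

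Hormone genes were found for most enteroendocrine subtypes. Gip, the incretin of K cells, had 160.4 and 214 TPM, Cck, cholecystokinin, 166 and 186, and Gcg, the proglucagon gene of L cells, 167 and 181. The ranges of these 3 genes overlapped, so their order is not resolved. Sst, somatostatin, had 103 and 113 TPM, and Tac1, the substance P precursor, 63.4 and 87.4. Tph1, the enzyme of serotonin synthesis, had 61.5 and 83.1, Ghrl, ghrelin, 59.9 and 74.8, and Sct, secretin, 53.3 and 77.6. The more distal hormone genes Pyy (peptide YY) and Nts (neurotensin) were lower, with 29.4 and 37 TPM (Pyy) and 15.5 and 26 TPM (Nts). Gip exceeded Pyy 5.46 and 5.79 times. Insl5, a hormone of colonic L cells, was at 0.216 and 0.105 TPM and Gal, galanin, at 0.209 and 0.102, each from 2 and 1 counts. In all, 10 of 12 hormone or amine genes reached 1 TPM in both libraries.

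Chgb and Chga, the chromogranins of secretory granules, had 152 and 176 TPM (Chgb) and 72.6 and 91.3 TPM (Chga), with Chga (chromosome 12, 102554969 to 102565028) measured from 1 transcript. Neurog3, the transcription factor that commits progenitors to this lineage, had 5.66 and 4.6 TPM, and it was chosen for its role after values were seen. Reg4, a regenerating-family peptide of this lineage, had 153 and 144 TPM. Of 28 enteroendocrine genes 27 reached 1 TPM in both libraries. The list's sum was 1439 ± 172 TPM.

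**Figure D3:**
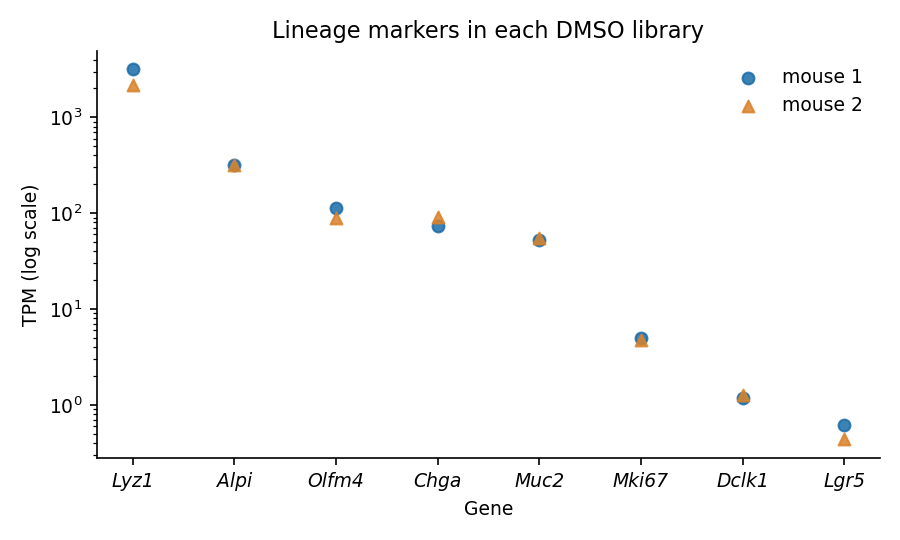
TPM (vertical axis, log scale) of the 7 lineage markers and of Lgr5 (horizontal axis) in the DMSO library of mouse 1 (circles) and mouse 2 (triangles). Lyz1 lies at 3169 and 2166 TPM and Lgr5 at 0.612 and 0.438, and the 2 libraries lie close together for each gene on this scale.

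Tuft cell genes were low. Avil, an actin-binding protein of the tuft, was the highest at 15.8 and 18.4 TPM, followed by Sh2d6 at 8.3 and 8.46 and Alox5ap, which serves leukotriene synthesis, at 8.28 and 7.03. Trpm5, the cation channel of taste signalling, had 3.94 and 4.07 TPM. The marker Dclk1, a microtubule-associated kinase (chromosome 3, 55242364 to 55539068), had 1.19 and 1.28 TPM. It rested on about 142 and 135 counts of its main transcript, which carried 86.5% and 74.8% of the level. Of 19 tuft genes 11 (57.9%) reached 1 TPM in both libraries, against 50.6% of protein-coding genes. The list's median was 1.57 and 1.69 TPM. The sum of 60.8 ± 1.29 TPM was the lowest of the 7 lineage lists in both libraries. Vav1 of this list, at 2.69 and 2.91 TPM, is also expressed by leukocytes and is named after its values were seen.

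Genes of microfold cells, which carry antigens across the epithelium, were low apart from 1 member. Gp2, their receptor for bacteria, had 0 counts in both libraries, and Sox8, a transcription factor of the lineage, had 0.0197 and 0.0193 TPM. Spib, which drives their maturation, had 2.03 and 2.58 TPM. Pglyrp1, a peptidoglycan-binding protein, made up most of the list with 296 and 213 TPM. The list had 5 of 8 members (62.5%) at 1 TPM or more in both libraries, against 50.6% of protein-coding genes. Without Pglyrp1 its sum was 17.4 and 16.4 TPM.

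The stem cell list was led by Olfm4, a secreted glycoprotein that marks crypt base columnar cells (chromosome 14, 79984081 to 80023139). Olfm4 had 114 and 88.1 TPM. Lgr5, the R-spondin receptor that defines these stem cells, had 0.612 and 0.438 TPM, from 44 and 35 counts over its transcripts. Olfm4 thus exceeded Lgr5 186 and 201 times. Cd44, a hyaluronan receptor and Wnt target, had 54 and 49.2 TPM, Prom1, which encodes CD133, 32.5 and 27.4, and Ephb2, a receptor that sorts cells along the crypt, 28.3 and 26.2. Rnf43, a ubiquitin ligase that removes Wnt receptors, had 25.5 and 27.6, and the ion transporter Slc12a2 26.2 and 15.8. Of 23 genes 19 reached 1 TPM in both libraries. The list's median was 10.8 and 11.1 TPM and its sum 391 ± 52.1. Beside Lgr5, the members below 1 TPM in both libraries were the water channel Aqp4 (0.443 and 0.299 TPM) and the telomerase gene Tert (0.206 and 0.368 TPM), and the 3 are named because they fell below that level.

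Cells in cycle were represented by every listed gene. All 24 proliferation genes reached 1 TPM in both libraries, with a median of 27.1 and 21 TPM. Pcna, the sliding clamp of DNA replication, had 173 and 165 TPM and shared 31.8% of its windows with a pseudogene. Ube2c, which marks mitotic proteins for destruction, had 109 and 68.6, and Cdk1, the mitotic kinase, 66.7 and 49.4. Ccnb1, the cyclin of mitosis, had 55.6 and 33.8 TPM, with 79.3% of its windows shared, most of them with its pseudogene. Hmgb2, a chromatin protein of dividing cells, had 73.4 and 66.1. Mki67, the proliferation marker (chromosome 7, 135689784 to 135716361), had 5.04 and 4.72 TPM. Its 896 and 859 counts were spread over a transcript of 10075 bases, so that many reads give a low TPM. The summed level of the list was 861 ± 128 TPM.

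Ordered by their sums, the 7 lineage lists ran from Paneth through enterocyte, goblet, enteroendocrine, proliferation and stem to tuft. The enterocyte and goblet sums overlapped in range (8465 and 9049 against 7660.2 and 9382 TPM), and goblet was the higher in mouse 2. The lists differ in length and in the abundance of their best-known products, so this order describes RNA and not numbers of cells. In estimated counts the proliferation list (0.152 and 0.123 percent) and the enteroendocrine list (0.121 and 0.143 percent) overlapped, and on average they changed places.

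**Figure D4:**
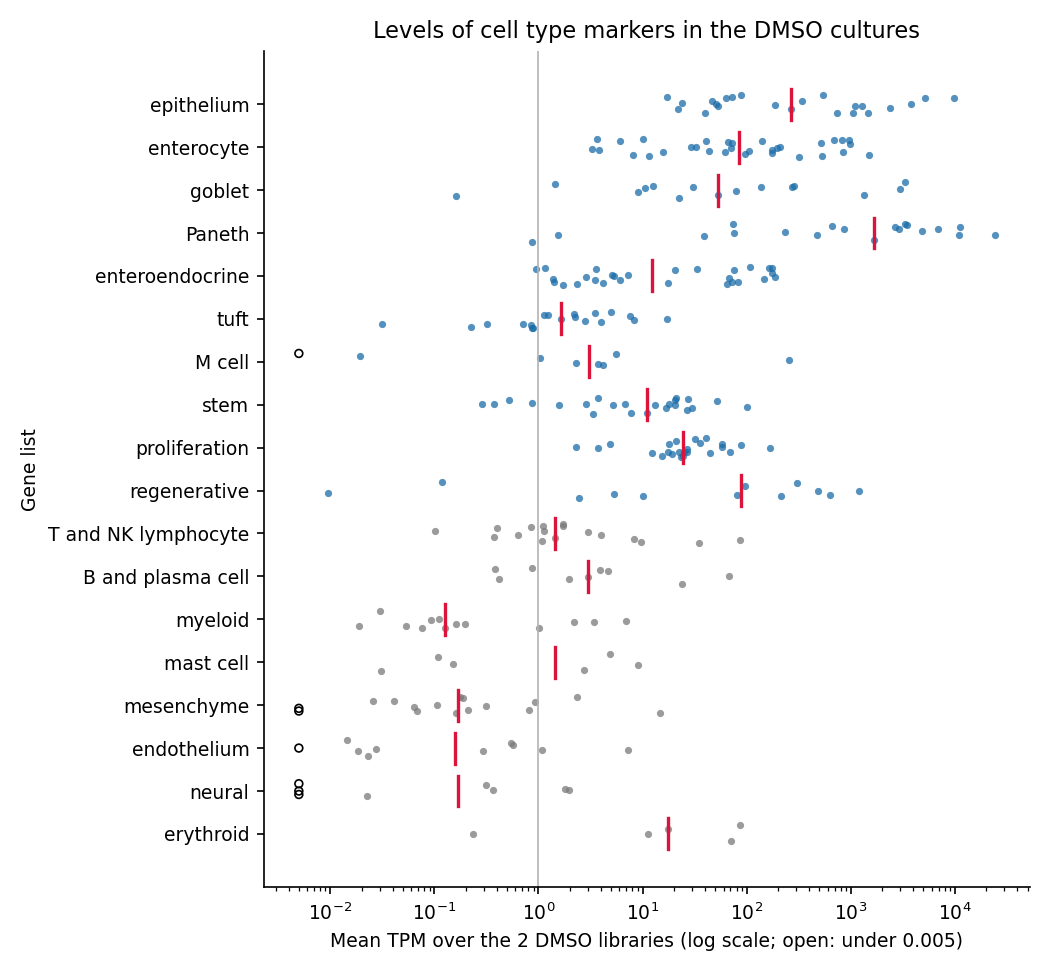
Mean TPM over the 2 DMSO libraries (horizontal axis, log scale) of each member (points) of 18 gene lists (vertical axis), with the list's median in red and members under 0.005 TPM as open circles. Lists of epithelial cells are blue, lists of other cells are grey, and the grey vertical line marks 1 TPM.

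Genes of general epithelial identity were high in both cultures. The simple-epithelium keratins Krt8 and Krt19 had 10248 and 9488 TPM (Krt8) and 5512 and 4839.7 TPM (Krt19), and Krt18 had 2405 and 2391. Krt8 and Krt18 proteins pair to form filaments, and their transcripts stood in a ratio of 4.26 and 3.97. Krt20, a keratin of differentiated cells, had 1089.8 and 1502 TPM and Krt7, 517 and 489. Lgals4, a galectin of the intestinal surface, had 3722 and 3837 TPM. The adhesion molecule Epcam had 1001 and 1209.8. All 23 genes of the list reached 1 TPM, and 13 reached 100 TPM in both libraries. In the keratin list 9 of 10 genes reached 1 TPM in both libraries. Keratins of stratified epithelium were low, with Krt5 at 3.19 and 3.63 TPM and Krt14 at 3.18 and 4.55.

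A few claudins, the sealing and pore proteins of tight junctions, held most of the claudin RNA. Cldn4 had 1451 and 1837 TPM, Cldn7 1344 and 1608 and Cldn3 973 and 1148. The pore-forming Cldn2 and Cldn15 had 106 and 69.4 TPM (Cldn2) and 77.7 and 97.2 TPM (Cldn15), and Cldn23 had 59.99 and 76. The ranges of Cldn2 and Cldn15 overlapped. The other claudins over 1 TPM in both libraries were Cldn12 at 32.9 and 33.7 TPM and Cldn18 at 1.79 and 1.99, both named after their values were seen, and 5 of 13 stayed below 1 TPM in both. The 16 genes of the brush border and cytoskeleton all reached 1 TPM in both libraries. Actg1 and Actb, the cytoplasmic actins, had 3982 and 4568 TPM (Actg1) and 2797 and 2996 TPM (Actb). Actg1 shared 55.9% of its windows with other genes. The actin-sequestering thymosins Tmsb4x and Tmsb10 had 3027 and 3442 TPM (Tmsb4x) and 2555 and 2301 TPM (Tmsb10). Ezr, which links actin to the microvillus membrane, had 711 and 784, and Vil1, the villin that bundles microvillus actin, 553 and 516. Of the Vil1 level, 87.5% and 89.7% came from the transcript of 3124 bases.

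Of 24 transcription factors of intestinal lineages, 22 reached 1 TPM in both libraries. Hnf4a, a nuclear receptor of enterocyte differentiation, was the highest at 348 and 335 TPM, 6.29 and 8.98 times its relative Hnf4g. Hnf4a was divided over mainly 2 transcripts, Hnf4a-201 with 52.6% and 49.2% and Hnf4a-202 with 38.5% and 42.6% of the level. They are nearly equal in length (4356 and 4362 bases), and single-end reads of 50 bases separate such transcripts poorly. Gata4, a factor of the proximal small intestine, had 135 and 105 TPM, and Xbp1, which serves secretory cells, 124 and 109.5. Cdx2 and Cdx1, the homeobox factors of the intestine, had 82.8 and 63.5 TPM (Cdx2) and 59.4 and 46.7 TPM (Cdx1). Hes1, the Notch effector that favours absorptive fate, had 51.3 and 52 TPM. Atoh1, the factor that opens the secretory fate, had 4.55 and 3.1 TPM and is named for its role after its values were seen. Gfi1 and Bhlha15, both secretory factors, were the pair that stayed under 1 TPM, with 0.451 and 0.354 TPM (Gfi1) and 0.466 and 0.469 TPM (Bhlha15).

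Epithelial cells make part of their own niche signals, and levels in the ligand list ranged widely. Of 32 ligands and inhibitors 13 (40.6%) reached 1 TPM in both libraries and 19 were below it in both. That share is near the 37.9% of all genes and under the 50.6% of protein-coding genes, so it does not set the list apart. Ligands of the EGF receptor led. Areg, amphiregulin, had 595 and 680.3 TPM, Btc, betacellulin, 69.4 and 75.4, Hbegf 33.2 and 38.8, Tgfa 20.6 and 23.4 and Ereg, epiregulin, 16.8 and 20.5. Egf itself, which organoid media commonly supply, had 0.17 and 0.119 TPM. Ihh, the Hedgehog ligand by which epithelium signals to mesenchyme, had 66.5 and 69.1 TPM, whereas Shh had 0.155 and 0.0433 and Dhh 0.153 and 0.124.

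Among Notch ligands Dll1 had 11 and 11.4 TPM, Jag2 4.86 and 4.03, Jag1 4.26 and 3.41 and Dll4 2.61 and 3.43, while Dll3 had 0.242 and 0.336. Wnt3, the Wnt ligand that Paneth cells provide to stem cells, was at 1.56 and 1.5 TPM and was the one Wnt of the 32 genes above 1 TPM. Wnt11 had 0.56 and 0.537 TPM, Wnt4 0.452 and 0.384, Wnt5a 0.113 and 0.346, Wnt6 0.225 and 0.147, Wnt2b 0.164 and 0.112 and Wnt9b 0.0513 and 0.0251. R-spondins amplify Wnt signals and come from mesenchyme in tissue. Rspo2 and Rspo3 had 0 counts in both libraries, Rspo1 had 0.0337 and 0 TPM, and Rspo4 0.635 and 0.57. Nog, the BMP inhibitor noggin, and Nrg1, a ligand of ERBB3, also had 0 counts in both. The BMP inhibitors Grem1 and Chrd had 0.0855 and 0.0429 TPM (Grem1) and 0 and 0.0176 TPM (Chrd). The BMP ligands over 1 TPM were Bmp8b at 13.8 and 15.7 and Bmp2 at 5.02 and 7.71 TPM, and Bmp4 had 0.0384 and 0.322.

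Receptors for these signals were present in moderate amounts. Of 25 receptor genes 17 reached 1 TPM in both libraries, and none reached 100. The Wnt co-receptor Lrp5 was the highest at 51.4 and 42.4 TPM, and Fzd5, a Frizzled receptor of the crypt, had 26.5 and 27.1. Egfr had 36.3 and 30.9 TPM, Erbb3 23.1 and 28.8 and Erbb2 25.6 and 25.3. Erbb3 and Erbb2 overlapped in range, and Erbb4 had 0 counts in both libraries. Lgr4, a relative of Lgr5 that also binds R-spondins, had 26 and 23.3 TPM.

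**Figure D5:**
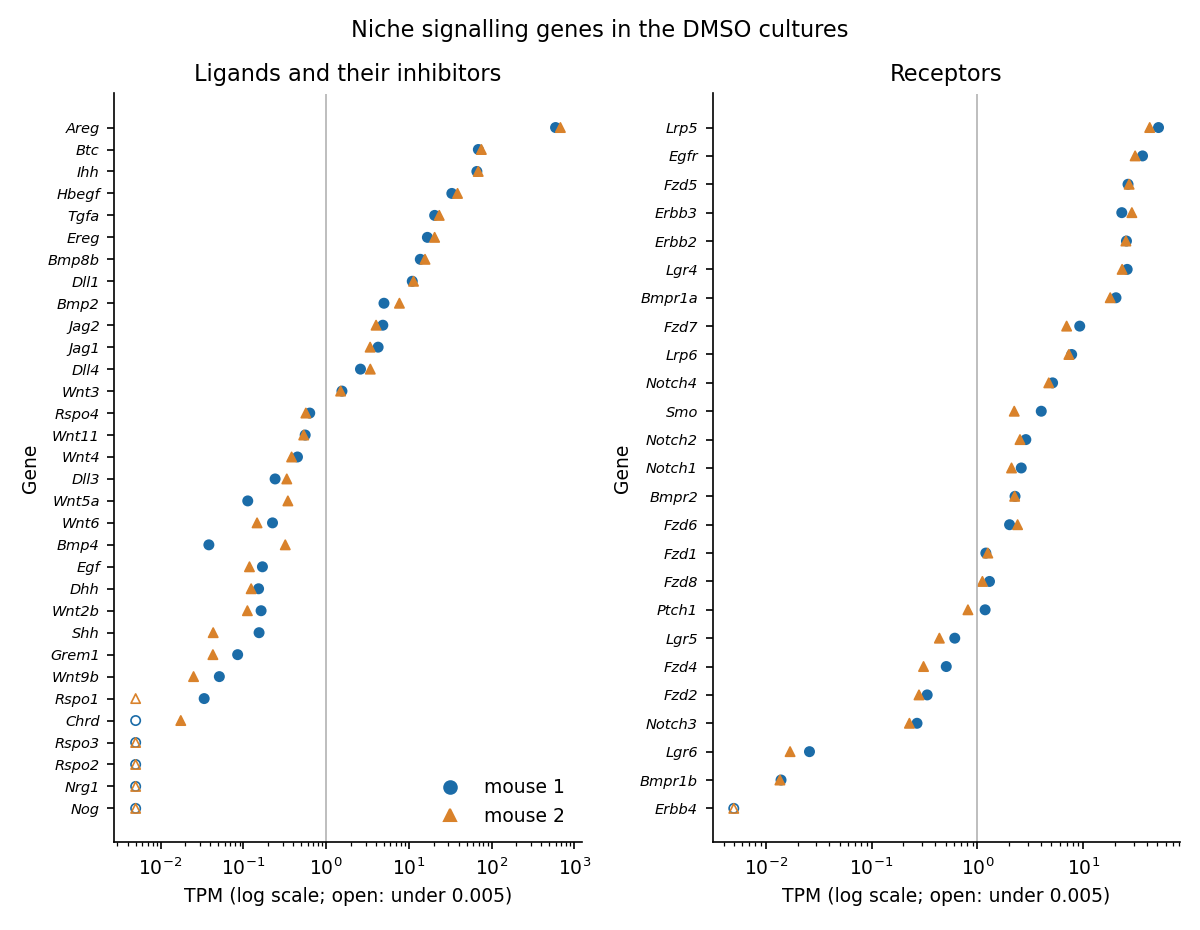
TPM (horizontal axis, log scale) of ligands and their inhibitors (left) and receptors (right) of the Wnt, EGF, Notch, BMP and Hedgehog pathways, 1 gene per line, in mouse 1 (circles) and mouse 2 (triangles), with open symbols under 0.005 TPM. Areg lies at 595 and 680.3 TPM, far right of the other ligands, and 19 of the 32 ligand genes lie left of the line at 1 TPM in both libraries.

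A further list held 14 antimicrobial and secreted defence genes, of which 9 reached 1 TPM in both libraries. Reg3b, Reg3g and Lypd8 led it, followed by Reg1 at 197 and 159.6 TPM, and S100g, a calcium-binding protein, had 67 and 84. Lcn2, the iron-sequestering lipocalin induced by inflammation, had 0.229 and 0.168 TPM, and Reg2 had 0 counts in both libraries.

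Genes tied to epithelial repair were present beside those of the resting lineages. Sprr1a, a small proline-rich protein induced by stress, had 1280.4 and 1127 TPM, Il1rn, the interleukin 1 receptor antagonist, 511 and 452, and Anxa1 and Anxa3, annexins of migrating cells, 299 and 309 TPM (Anxa1) and 219.6 and 213 TPM (Anxa3). Clu, clusterin, which marks revival stem cells, had 101 and 90.8 TPM. Ly6a, which encodes Sca-1 and marks regenerating epithelium, lies outside the rule for names and had 89.8 and 70.9. Spp1 and Gja1 were the members under 1 TPM in both libraries, with 0 and 0.239 TPM (Spp1) and 0.019 and 0 TPM (Gja1). The list had 10 of 12 members at 1 TPM or more and a median of 95.6 and 80.8 TPM. Cultures at another time point were not measured, so no change over time can be read from these levels.

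Lists of gut regions were used to check the tissue label. All 7 proximal genes and 6 of 8 ileal genes reached 1 TPM in both libraries. Fabp6, the bile acid carrier of the ileum, had 259.9 and 196 TPM, and Fabp1, a proximal gene, exceeded it 7.02 and 5.95 times. Fabp1 alone made up 91.8% and 90.1% of the proximal sum. The list medians lay the other way, at 7.0 and 5.2 TPM for proximal and 28.9 and 33.2 TPM for ileal genes. Without the highest member of each list, the sums were 163 and 129 TPM (proximal) and 157 and 170 TPM (ileal). The basolateral bile acid exporter genes Slc51b and Slc51a had 48.5 and 49.6 TPM (Slc51b) and 42.3 and 42.3 TPM (Slc51a). Nr1h4, the bile acid receptor FXR, had 33.5 and 33.3 TPM. Slc10a2, which takes up bile acids in the ileum, had 7.77 and 9.91 TPM. Proximal and ileal genes were thus measured in the same cultures, and crypts from several segments cannot be told apart from cells that express both. Pdx1, a factor of the duodenum, was at 3.65 and 1.78 TPM, and Onecut2, another proximal factor, at 3.75 and 3.75.

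Of the 8 colon genes, 3 reached 1 TPM in both libraries. Car4 had 18.9 and 20.0 TPM. Car1, a carbonic anhydrase of the colon, had 1.34 and 1.41 TPM, Aqp8 0.284 and 0.624, Fxyd4 0.109 and 0.0533 and Hoxb13 0.0275 and 0.0536, while Hoxd10 had 0 counts in both. Car4 lay above 5 of the 7 proximal genes, so single genes of these lists do not order the regions. Paneth cell genes, which the normal mouse colon lacks, were among the most abundant of the libraries, as a small-intestinal label implies. Of 9 stomach genes, Tff1 alone reached 1 TPM in both libraries (7.08 and 3.82 TPM), and Gkn1, Gkn2 and Sox2 had 0 counts.

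Some RNA of cells outside the epithelium was present in both cultures. The T and NK lymphocyte list had 10 of 17 measured members (58.8%) at 1 TPM or more in both libraries. That share is not far from the 50.6% of protein-coding genes, so the count does not set the list apart. The list's sum was 165 and 147 TPM. Gzma, a granule protease, had 94.6 and 76.8 TPM and made up most of that sum. The chemokine Ccl5 had 36.6 and 33 TPM, Cd7 9.98 and 9.34, and Cd3g and Cd3e of the T cell receptor complex had 6.93 and 9.57 TPM (Cd3g) and 3.94 and 4.06 TPM (Cd3e). Ptprc, which encodes the pan-leukocyte CD45, had 2.6 and 3.41 TPM, and Epcam exceeded it 386 and 355 times. In the B and plasma cell list, Igkc, the kappa light chain, had 58 and 76.6 TPM and Igha, the heavy chain of IgA, 21.3 and 26.3. The list's sum was 89.6 and 123 TPM.

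Genes of connective tissue, vessels and nerves were mostly under 1 TPM, 14 of 16 in both libraries for mesenchyme. Vim, the filament protein of mesenchyme that leukocytes also make, had 15 and 14.5 TPM, and the other 15 mesenchymal genes summed to 4.63 and 6.3 TPM. Lum and Foxl1 had 0 counts in both libraries. Of 10 endothelial genes, Pecam1 alone reached 1 TPM in both libraries (7.3 and 7.25 TPM), and Emcn had 0 counts. Of 8 genes of neurons and glia, Tubb3 reached it with 1.72 and 2.22 TPM and Ret with 1.91 and 1.68, and Sox10 and Elavl4 had 0 counts. Of 13 myeloid genes 3 reached 1 TPM in both libraries, with Cd14 at 7.04 and 6.79 TPM, Cd68 at 3.22 and 3.64, C1qa at 0.776 and 1.26 and Csf1r at 0.187 and 0.208. The mast cell proteases Mcpt1 and Mcpt2 had 7.81 and 10.4 TPM (Mcpt1) and 5.91 and 3.77 TPM (Mcpt2). Cpa3, the carboxypeptidase of mast cells, had 0.0877 and 0.214. In that list 3 of 6 genes (50%) reached 1 TPM in both libraries, near the 50.6% of protein-coding genes.

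Of the 8 lists of other cells, the red cell list was the one whose sum lay over 2-fold apart between the cultures. The alpha-globin genes Hba-a2 and Hba-a1 had 11.3 and 161 TPM (Hba-a2) and 4.11 and 31.2 TPM (Hba-a1). The beta-globin genes Hbb-bs and Hbb-bt had 8.65 and 133 TPM (Hbb-bs) and 2.11 and 20.5 TPM (Hbb-bt). The list's sum was 26.3 and 346 TPM. Alas2, the erythroid enzyme of haem synthesis, stayed at 0.0975 and 0.371 TPM. The alpha-globin copies share 86.9% of the windows of Hba-a2, so their division is uncertain. The list made up 0.00266% and 0.0351% of the TPM, and whether blood in the preparation bears on any other level was not tested.

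The mitochondrial genome held the largest share of the 4 groups plotted above. Its 13 protein-coding genes, which encode subunits of the respiratory chain and the ATP synthase, took 11.6 and 14.2 percent of the TPM. In counts this was 7.6% (95% Wilson interval 7.59 to 7.61) and 9.43% (9.41 to 9.44). Among them mt-Co2 was the highest at 21328 and 26604 TPM and mt-Nd6, the one encoded on the other strand, had the lowest mean, at 1884 and 2611. The ranges of mt-Nd6, mt-Atp8 and mt-Nd5 overlapped. The transcripts of mt-Co3 had 15988 and 18939 TPM and those of mt-Cytb 10339 and 12952. Other annotated genes share most windows of several of them, 100% for mt-Co2 and 99.5% for mt-Atp6. Gm10925, which holds those of mt-Atp6, was listed at 32 and 411 TPM, so the division of reads between the 2 genes is uncertain.

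Cytosolic ribosomal protein genes took a share of similar size. The 84 genes held 10.6 and 11.1 percent of the TPM, and 77 of them reached 100 TPM in both libraries. Near-identical copies blur single members, and also the group's sum, because the 84 genes leave out pseudogenes. Rps27 is listed at 0 in both libraries while Rps27rt, a retrotransposed copy that shares 89.8% of its windows with other genes, is listed at 3877 and 4490.4 TPM. Processed pseudogenes as a class held 4.51 and 4.37 percent of the TPM. The highest were Rpl31-ps8 at 3059.6 and 2854 TPM, Rpl27-ps3 at 2350.5 and 2278 and Gm9843 at 2235 and 2357. They share all of their windows with Rpl31, Rpl27 and Fau in this order. Rpl27 itself, one of the 84 genes, was listed at 143 and 127 TPM. Reads of ribosomal protein genes may thus be listed under pseudogenes, outside the share of the 84 genes and outside the combined share that follows. How many was not tested. Together the mitochondrial, ribosomal, alpha-defensin and keratin genes made up 34.2 and 35.7 percent of the TPM. Their share of the counts was 17.1 and 18.7 percent. Eef1a1, the elongation factor that brings tRNA to the ribosome, led the translation factors with 5794 and 5408 TPM. Gapdh led the glycolytic enzymes with 3156 and 2876. Eef1a1 shared 46.1% of its windows with other genes and Gapdh 86.6%, so both levels rest in part on the division of reads. All 12 genes of the translation factor list and all 12 of the glycolysis list reached 1 TPM in both libraries.

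Among genes outside all lists, a gene of the cornified envelope family was near the top. Sprr2a2, a small proline-rich protein, had 8513 and 6891 TPM, and all of its windows occur in its neighbour Sprr2a1 as well. Gsta1, a glutathione transferase of detoxification, had 5549 and 5096 TPM and shared 49.6% of its windows, most of them with Gsta2. Dstn, destrin, which takes actin filaments apart, had 4151 and 4934 TPM. The S100 family genes S100a10 and S100a11 had 3122 and 3647 TPM (S100a10) and 3361 and 3115 TPM (S100a11). The ferritin chains Ftl1 and Fth1, which store iron, had 3089 and 2711 TPM (Ftl1) and 2848 and 2853 TPM (Fth1), and Anxa2, the partner of S100a10, had 2751 and 2691. AY761184, which lies within the alpha-defensin cluster and shares 33.5% of its windows with other genes, had 3296 and 2966 TPM.

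Levels in the 2 cultures lay close together for most genes. Over the 6742 genes with a mean of at least 10 TPM, the higher library exceeded the lower by a median of 1.11 times, with a 95th percentile of 1.43. Only 48 genes, 0.712% of them, lay over 2-fold apart. Beside the globins these included the metallothioneins Mt1 and Mt2, metal-binding proteins induced by zinc and stress, with 1106 and 354 TPM (Mt1) and 557 and 135 TPM (Mt2). They also included Mptx2, a pentraxin of Paneth cells, with 106 and 42.1 TPM, and Apoc3 with 59.4 and 132. Mt1 and Mt2 are named after their values were seen. These pairs describe the spread of 2 cultures, and no test was made of them.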

How the data were processed

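Poly-A RNA of the organoid cultures was sequenced as single-end reads of 50 bases after stranded TruSeq library preparation, per the labels' protocols. The submitters' processing notes name kallisto and FastQC (no versions), CASAVA 1.7 and the build mm10. For each transcript the authors deposited an estimated count, not normalised, and a TPM value scaled over the whole library, as the column headers show. The sources used here name neither an annotation release nor any use of strand.

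Of 88198 transcripts, 86119 (97.6%) matched GENCODE M21 (GRCm38). The deposited TPM and the deposited estimated counts were summed over the transcripts of 30284 genes, with no rounding. The unmatched transcripts held 1.23% and 1.24% of the TPM and stayed out of the totals of all shares. Gene levels are the deposited TPM, not rescaled. The depth was 19014131 and 19360706 counts. TPM carry no counting error of their own, and the intervals on count shares (Wilson) leave out the spread between cultures. Windows of 50 bases were compared on the same strand between the most abundant transcript of a gene and all transcripts of the files that GENCODE M21 holds; 88.9% of these had the length the files give.

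The members and the 36 lists of 469 genes (466 measured) were chosen with earlier results of these data known. Named genes are the 30 with the highest mean, the 7 given markers, the 6 highest and the 0-count members of each list, all hormones, mucins and niche ligands, and the 10 highest genes outside the lists. Names outside this rule, mostly low members and members of the alpha-defensin family, were chosen after their values were seen. The alpha-defensin family was taken from GENCODE symbols and RefSeq synonyms (GRCm38.p6). Some genes that the rule would name are not reported here. The summing step was tested on simulated data. Python 3.11.15 with pandas 2.3.3 was used. The GW3965 libraries and the series-wide tables were not used.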

Additional observations from a re-analysis of the deposited data

How the results depend on the processing

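The mean number of genes at 1 TPM or more, 11904, became 18324 when any count above 0 was enough. Measured as a share of estimated counts, which is not per length, 573.5 genes on average held 50% of a library in place of 167. On that scale the mean mitochondrial share was 8.51% (12.9% of TPM) and the ribosomal protein share 4.62% (10.9% of TPM). The lineage lists in counts stood at 1.96% for Paneth (7.58% of TPM), 1.22% for enterocyte (0.887%), 0.381% for goblet (0.863%), 0.137% for proliferation (0.0871%), 0.112% for stem (0.0396%) and 0.0108% for tuft (0.00615%). With mitochondrial genes left out of the total, ribosomal proteins took 12.5%, Paneth 8.69%, enterocyte 1.02%, goblet 0.992%, enteroendocrine 0.168% (0.146% in the full total), stem 0.0454% and tuft 0.00707%. These rise because the total is smaller. Without its most abundant member, a list stood at 5.12% for Paneth, 0.735% for enterocyte, 0.529% for goblet, 0.127% for enteroendocrine, 0.0700% for proliferation, 0.0294% for stem and 0.00442% for tuft.

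Leaving out 1 of 2 libraries returns the value of the other, so the ranges that follow repeat the spread between the libraries and are no further check. With 1 library left out at a time, the mitochondrial share was 11.6% to 14.2% and the ribosomal share 10.6% to 11.1%. Genes at 1 TPM ranged from 11889 to 11919, and those that hold 50% from 160 to 174. The lists ranged from 6.93% to 8.23% (Paneth), 0.857% to 0.916% (enterocyte), 0.776% to 0.950% (goblet), 0.133% to 0.158% (enteroendocrine), 0.0780% to 0.0963% (proliferation), 0.0359% to 0.0433% (stem) and 0.00606% to 0.00624% (tuft). The order of the 7 lists changed in counts, where proliferation passed enteroendocrine, and without mouse 1, where goblet passed enterocyte. Leaving out transcripts with an effective length under 50 bases, an alternative chosen after the data had been seen, moved 2 of 46 values by more than the spread between the libraries, neither of them a lineage share. No paired analysis was possible because the vehicle cultures are the only group used and no treatment comparison was made. At this depth a gene with fewer than 3 counts in a library cannot be told from one with none.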

Other observations

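Some genes lay over 2-fold apart between the 2 cultures without belonging to a lineage list. Clca4a, a member of the chloride channel accessory family, had 75.2 TPM in mouse 1 and 228 in mouse 2. Iapp, which encodes the peptide amylin, had 6.78 and 21.7 TPM. The stress-induced chaperone gene Hspa1a had 12.1 and 28.4 TPM, and Adm, adrenomedullin, had 5.99 and 15.0. Mrpl23, a mitochondrial ribosomal protein gene, had 21.8 TPM in mouse 1 and 5.45 in mouse 2. Gm12715, which holds 51.1% of the 50-base windows of Actg1, had 291 and 40.6 TPM. All were chosen after their values were seen, and no test was made.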
